A study of Mus musculus with 6 samples.

Results

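Microglia are the resident macrophages of brain tissue, and the 35 genes described here are chosen by symbol as genes that microglia express. All 35 had a row among the 32531 gene features counted in each library, and all 35 passed the filter on low counts. The libraries come from the hypothalamus of adult control mice, untreated, of the line Lhx5-TRAP DT154. These mice carry an EGFP-tagged ribosomal protein L10a (EGFP/Rpl10a) under the driver gene Lhx5, and both groups carry it. An antibody against EGFP captured the tagged ribosomes with their RNA (IP, 3 libraries), and the second group is the unbound RNA (3 libraries), which the titles name input. The question is how far RNA of cells other than the tagged ones is depleted or kept in the capture. The labels do not say whether an IP and an unbound library come from the same animal, how many animals were pooled, or which cells of the line carry the tag. If replicates are not separate animals, p-values measure only the spread between these libraries.

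Microglia enter the brain from the yolk sac in the embryo and depend on the receptor Csf1r and on the transcription factors PU.1 (encoded by Spi1) and Irf8. They sense their surroundings through receptors such as Cx3cr1, which binds the neuronal chemokine fractalkine, and P2ry12, which senses nucleotides. Trem2 and Fc receptors signal through the small adaptors Tyrobp and Fcer1g, C1q tags material for removal, and cathepsins and other lysosomal proteins digest what is taken up. Lhx5 is a transcription factor of neurons, so microglia are not a cell type in which its driver is known to be active.

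Of the 35 genes, 34 were lower in IP than in unbound RNA, each by 2-fold or more, and 0 were higher (edgeR's quasi-likelihood test, Benjamini-Hochberg adjusted p under 0.05 over 16991 genes). Among all genes tested 23.2% were lower, 18.0% were lower by 2-fold or more and 21.1% were higher, or 44.3% in either direction. In 34 of the 35 every IP library lay below every unbound library, against 28.7% of all genes tested. The median log2 fold change of the 35 genes was -3.39, from -6.10 for Ptprc to 0.29 for Lgmn, beside -0.01 for all genes tested. On the scale of group means the median gene stood in IP at 9.70% of its unbound level, with 18 genes under 10%, 13 between 10% and 25%, and 4 above 25%. Lgmn, which encodes the lysosomal protease legumain, did not pass, and its IP and unbound levels overlapped. A lower level here means that a gene made up a smaller part of the captured RNA than of the unbound RNA. It does not measure the number of microglia or their RNA per cell, and the reason for it was not tested.

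The 6 libraries held from 32471045 to 46293837 gene counts. Unbound replicate 3 stood apart from the other unbound libraries, with a chi-square per degree of freedom of 107 and 115 against 19.7 between replicates 1 and 2, and IP replicate 3 stood at 60.3 and 49.0 from the other IP libraries, which were at 23.1. Lane 4 held replicate 2 and lane 2 the rest. Lhx5, the driver gene, stood at 56.7 to 70.5 CPM in IP and 1.86 to 6.28 CPM in unbound RNA. Without the third pair of libraries, 33 of the 35 microglia genes were lower (Cyba was lost) and 1, Lgmn, was higher. With lane 2 alone, 2 libraries a group, 29 were lower and 0 higher, and lane 4 has 1 library a group and allows no test. All levels below are read counts scaled to library size (CPM, TMM scaling), given for replicates 1, 2 and 3 in that order.

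**Figure D1:**
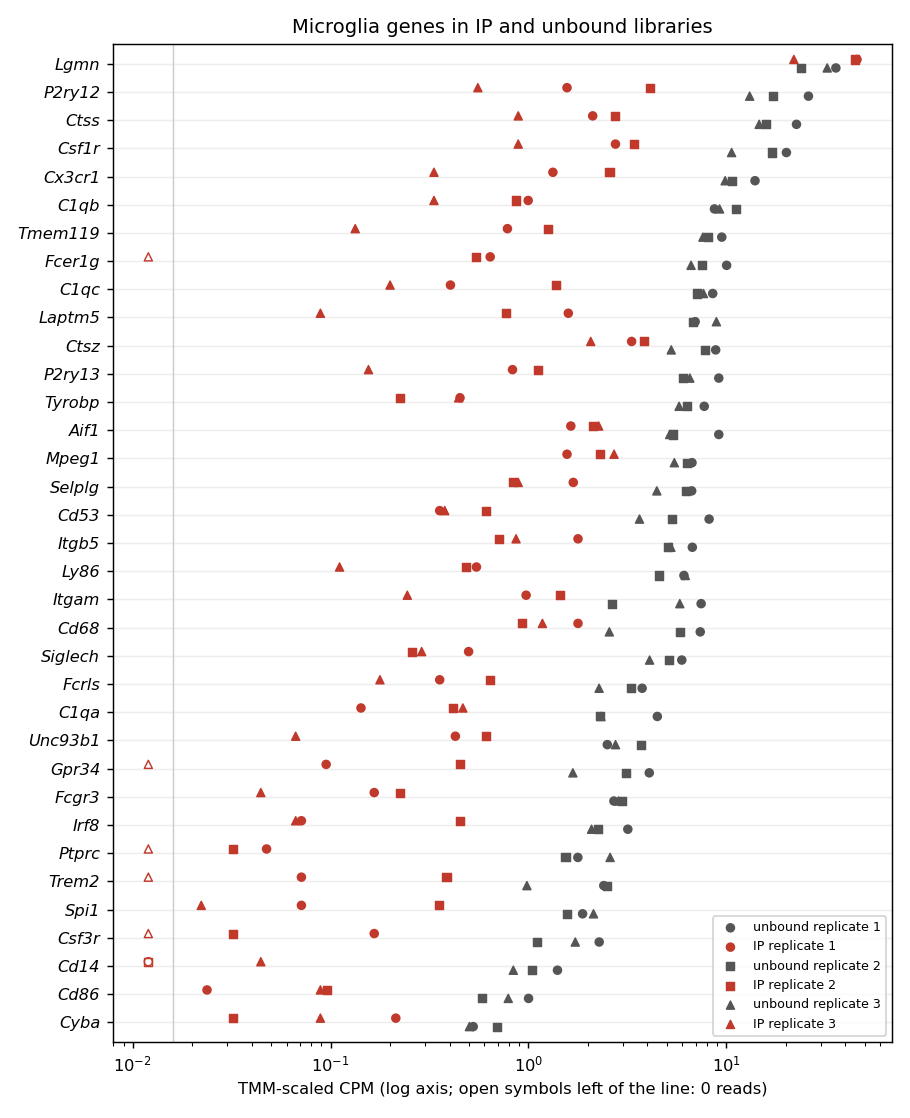
TMM-scaled CPM of the 35 microglia genes (log axis, rows ordered by mean unbound level) in the 3 IP libraries (red) and the 3 unbound libraries (grey), with a symbol for each replicate. The IP symbols lie to the left of the unbound symbols for 34 genes, and Lgmn, in the top row, is the exception.

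To show what stands upstream of these genes, promoter sequences from RefSeq (GRCm38.p6, the assembly also called mm10) were searched for letters bound by the factors of the set itself. The table matched 25 of the 35 genes, with 29 windows that reach from 250 bases before to 50 bases after a start site. PU.1 binds purine-rich sites with the core GAGGAA, and GAGGAA on either strand was found in 15 of the 25 genes (60%) and in 31.2% of the 27025 genes with a window. The longer form GAGGAAGT, which contains it, was found in 3 of the 25 (12%) and 3.69% of all. The composite site of PU.1 and IRF factors (EICE) was found in 1 of the 25, Cd68 (4%), and in 3.16% of all, and TATAAA in 6 (24%) and 15.7%. A match is a description of letters and shows no binding. The 3 windows with GAGGAAGT (C1qc, Ctss and Cd53) and the first window of Lgmn, the gene that did not pass, are shown from 250 bases before to 20 bases after the start, with GAGGAA or its complement TTCCTC in capitals.
C1qc (chr4:136892895-136893164, minus strand): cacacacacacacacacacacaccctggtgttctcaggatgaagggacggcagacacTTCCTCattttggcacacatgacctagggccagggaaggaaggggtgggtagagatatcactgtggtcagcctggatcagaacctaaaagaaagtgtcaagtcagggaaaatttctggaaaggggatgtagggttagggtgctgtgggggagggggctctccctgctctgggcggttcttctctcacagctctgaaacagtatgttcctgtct
Ctss (chr3:95526536-95526805, plus strand): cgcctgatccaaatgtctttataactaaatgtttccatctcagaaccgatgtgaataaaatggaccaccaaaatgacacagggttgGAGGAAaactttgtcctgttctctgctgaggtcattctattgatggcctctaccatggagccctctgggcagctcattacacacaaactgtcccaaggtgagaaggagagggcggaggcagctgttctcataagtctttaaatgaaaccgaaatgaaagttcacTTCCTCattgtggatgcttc
Cd53 (chr3:106790130-106790399, minus strand): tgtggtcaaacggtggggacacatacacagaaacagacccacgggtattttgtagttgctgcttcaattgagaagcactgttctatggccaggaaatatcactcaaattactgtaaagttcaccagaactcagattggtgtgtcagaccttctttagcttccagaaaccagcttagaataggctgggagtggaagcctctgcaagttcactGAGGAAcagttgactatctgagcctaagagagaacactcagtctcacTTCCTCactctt
Lgmn (chr12:102439709-102439978, minus strand): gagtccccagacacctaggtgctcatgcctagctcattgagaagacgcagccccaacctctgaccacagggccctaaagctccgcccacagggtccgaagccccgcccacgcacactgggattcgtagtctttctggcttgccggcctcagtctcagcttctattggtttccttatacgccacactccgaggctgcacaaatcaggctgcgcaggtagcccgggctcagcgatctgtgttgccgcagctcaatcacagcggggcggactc
In C1qc the single match begins 193 bases before the start site, on the opposite strand. In Ctss and Cd53 a match on the gene's own strand lies at -164 and -39, and a match on the opposite strand begins at positions 1 and 9. Lgmn has 0 matches to GAGGAA in its 2 windows, as have 9 genes that were lower in IP (Cx3cr1, P2ry12, Fcer1g, Itgb5, Ly86, Ctsz, Mpeg1, Cyba and Irf8), so these letters do not separate Lgmn from the rest.

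The surface receptors of resting microglia were lower in 10 of 10 cases, with a median of -3.30 on the log2 scale. P2ry12, the purine receptor, stood at 1.57, 4.11 and 0.555 CPM in IP and 26.03, 17.2 and 13.1 CPM in unbound RNA. The IP libraries differed widely among themselves, replicate 2 being the highest and replicate 3 the lowest, and none reached the unbound range. The log2 fold change was -3.20 ± 0.68 (SE; edgeR adjusted p = 0.00874), and without IP replicate 2 it was -4.13. P2ry12 lies on the minus strand of chromosome 3 from 59216272 to 59262871 (mm10), with its relative P2ry13 beside it from 59207892 to 59210882. P2ry13, also a nucleotide receptor, was at 0.831, 1.12 and 0.156 CPM in IP and 9.17, 6.04 and 6.55 CPM in unbound RNA, a similar pattern with the same order of IP libraries.

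Cx3cr1, the fractalkine receptor, stood at 1.33, 2.57 and 0.333 CPM in IP against 14.0, 10.7 and 9.88 CPM in unbound RNA. Its fold change was -3.06 ± 0.60 (SE; edgeR adjusted p = 0.00501), and -3.78 without IP replicate 2. Tmem119, a membrane protein used to mark microglia, was at 0.784, 1.25 and 0.133 CPM in IP and at 9.50, 8.11 and 7.62 CPM in unbound RNA. Its unbound libraries lay close together, at 8.41 ± 0.97 CPM (mean ± SD, n = 3), and each IP library was far below them. Without IP replicate 2 its log2 fold change went from -3.57 to -4.19. Csf1r, the receptor for the growth factors Csf1 and Il34, was at 2.76, 3.41 and 0.889 CPM in IP and 20.1, 17.0 and 10.6 CPM in unbound RNA, so it fell least among these receptors after Selplg. An exon of Hmgxb3 on the opposite strand covers 15.1% of its exon length, and the strand setting of the counting is not given, so reads of both genes may be mixed.

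Csf3r, the receptor for granulocyte colony-stimulating factor, had 7, 1 and 0 reads in the IP libraries and stood at 2.28, 1.10 and 1.73 CPM in unbound RNA. Its IP level was 3.88% of unbound, the lowest of these surface receptors. Its log2 fold change of -4.60 became -6.66 without IP replicate 1 and -3.95 without IP replicate 3. The lectin Siglech (6.88%), the G protein-coupled receptor Gpr34 (6.14%), the Fc receptor-like Fcrls (12.6%) and the selectin ligand Selplg (19.6%) completed the group. Gpr34 had 4, 14 and 0 IP reads, and its value of -4.12 went to -5.89 without IP replicate 2 and -3.47 without IP replicate 3. Siglech differed from most receptors in that IP replicate 2 was its lowest library, at 0.257 CPM against 0.499 and 0.289 CPM.

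Immune receptors and their adaptors were lower in 9 of 9 cases, with a median of -3.90. Tyrobp, the adaptor of Trem2, was at 0.451, 0.225 and 0.444 CPM in IP and 7.74, 6.33 and 5.78 CPM in unbound RNA. The fall was 17.7-fold, and its standard error, 0.36 on the log2 scale, was the smallest of the group. Fcer1g, the Fc receptor gamma chain, was at 0.641, 0.546 and 0 CPM in IP against 10.05, 7.55 and 6.64 CPM in unbound RNA. IP replicate 3 held no read of it among 46293837. Its log2 fold change of -4.37 was -4.99 without IP replicate 1 and -3.73 without IP replicate 3, and it did not pass with lane 2 alone (-4.70, edgeR adjusted p = 0.0598).

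Cd14, the co-receptor for bacterial lipopolysaccharide, had 0, 0 and 2 reads in IP and stood at 1.40, 1.05 and 0.839 CPM in unbound RNA. With 2 reads in IP against 127 in unbound RNA, the ratio of unbound to IP was 64.7 (95% exact interval 17.5 to 540, counting error only). The fitted log2 fold change of Cd14 was -5.80. Without IP replicate 3, where those reads lay, no IP read was left, so the fitted value of -8.38 measures no ratio. Trem2, the lipid receptor that signals through Tyrobp, had 3, 12 and 0 IP reads and 2.41, 2.50 and 0.983 CPM in unbound RNA. Its value of -3.78 was -5.68 without IP replicate 2 and -3.14 without IP replicate 3, and without IP replicate 1 it did not pass (-3.42, edgeR adjusted p = 0.0652).

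The remaining immune receptors spread from 5.11% of unbound for the Fc receptor Fcgr3 to 19.6% for the integrin chain Itgb5, which other brain cells also express. Ly86, the partner of the receptor Cd180, was at 6.74%, the costimulatory ligand Cd86 at 8.80% and the integrin chain Itgam at 16.7%. Itgam varied most among replicates, at 13.04%, 54.7% and 4.19%, and its unbound replicate 2 held 2.64 CPM against 7.47 and 5.83 CPM. In GENCODE a predicted gene, Gm49368, shares 68.7% of its exon length, so its count is uncertain.

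The C1q chains, which together start the classical complement pathway, were lower in 3 of 3 cases. C1qb stood at 0.998, 0.867 and 0.333 CPM in IP and 8.72, 11.2 and 9.26 CPM in unbound RNA, and fell by 3.74 ± 0.39 on the log2 scale (SE; edgeR adjusted p = 2.7e-04). C1qc was at 0.404, 1.38 and 0.200 CPM in IP and 8.54, 7.09 and 7.67 CPM in unbound RNA, with -3.60, or -4.67 without IP replicate 2. C1qa was at 11.3% of unbound and had its highest IP level in replicate 3, at 0.467 CPM, where C1qb and C1qc had their lowest. The genes lie side by side on the minus strand of chromosome 4, from 136880129 for C1qb to 136898803 for C1qa (mm10), and their fold changes, from -3.74 to -3.14, differed by about their standard errors.

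Among the other complement genes listed, 4 of 10 tested were lower and 0 higher, with a median of -0.35. Among them were the regulator Cfp (-3.84), the component C4b (-2.65) and the receptor C3ar1 (-2.56). C3 itself, which C1q activity leads to, stood at 2.83, 1.32 and 2.58 CPM in IP and 1.08, 0.988 and 1.53 CPM in unbound RNA and did not pass (0.90, edgeR adjusted p = 0.109).

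Genes of lysosomes, endosomes and the oxidase were the group with the widest range, 7 of 8 lower, with a median of -2.15. Ctss, the cysteine protease cathepsin S, was at 2.11, 2.73 and 0.889 CPM in IP and 22.7, 15.9 and 14.7 CPM in unbound RNA. Its IP level was 10.8% of unbound, close to the median of the set. Laptm5, a lysosomal membrane protein of blood-derived cells, stood at 1.59, 0.771 and 0.0889 CPM in IP against 6.97, 6.83 and 8.92 CPM in unbound RNA. The IP libraries of Laptm5 spanned a wide range, 22.8%, 11.3% and 0.996% of unbound. Its value of -3.21 was -4.20 without IP replicate 1 and -2.63 without IP replicate 3, and it did not pass with lane 2 alone (-3.24, edgeR adjusted p = 0.0900). Unc93b1, which carries Toll-like receptors to endosomes, was at 12.3% of unbound.

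Ctsz, the carboxypeptidase cathepsin Z, stood at 3.33, 3.82 and 2.07 CPM in IP and 8.84, 7.84 and 5.28 CPM in unbound RNA, the smallest fall among the genes called (-1.26 ± 0.31, SE). It did not pass with lane 2 alone (-1.38, edgeR adjusted p = 0.0626). Mpeg1, the pore-forming protein perforin-2, was at 1.57, 2.31 and 2.71 CPM in IP and 6.72, 6.36 and 5.47 CPM in unbound RNA (-1.49 ± 0.28, SE). Here IP replicate 3 was the highest library, at 49.6% of unbound. Cd68, a lysosomal membrane glycoprotein, was at 24.6% of unbound over the groups and 45.9% in replicate 3, where unbound RNA held 2.57 CPM against 7.39 and 5.87 CPM, and it did not pass with lane 2 alone (-1.75, edgeR adjusted p = 0.0815). Cyba, the p22-phox subunit of the phagocyte oxidase, rested on 9, 1 and 4 IP reads. Its value of -2.29 passed in the main test, but not with the replicate number as a block (-2.42, edgeR adjusted p = 0.0517). It was also lost without IP replicate 2 (-1.90) or 3 (-2.10) and without unbound replicate 1 (-2.32) or 2 (-2.13), and it was -3.10 without IP replicate 1.

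Lgmn stood at 45.8, 44.6 and 22.0 CPM in IP and 35.8, 23.8 and 32.4 CPM in unbound RNA. Replicates 1 and 2 were higher in IP, at 128% and 188% of unbound, and replicate 3 was lower, at 67.8%. The log2 fold change was 0.29 ± 0.28 (SE; edgeR adjusted p = 0.436). Leaving out IP replicate 3 made it pass as higher (0.59, edgeR adjusted p = 0.0385), as did leaving out the third pair (0.58, edgeR adjusted p = 0.0238). Of other lysosomal proteases, which many cell types make, the list of activation genes holds Ctsb, Ctsd and Ctsl. Ctsb was higher (0.75), at 624, 617 and 320 CPM in IP and 331, 308 and 290 CPM in unbound RNA, which overlap. Ctsd (0.22) and Ctsl (0.44) did not pass. Within the 35 genes the cathepsins Ctss (-3.23) and Ctsz (-1.26) were lower. The reason for these differences was not tested. Lgmn alone made up 60.9%, 55.2% and 57.7% of the summed CPM of the 35 genes in IP and 12.6%, 10.9% and 15.8% in unbound RNA. The sum over all 35 was 27.4% of unbound in IP, and over the 34 others it was 13.3%.

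Both leukocyte surface genes were lower. Ptprc, the phosphatase CD45 of all nucleated blood cells, had 2, 1 and 0 IP reads and stood at 1.78, 1.54 and 2.59 CPM in unbound RNA. The ratio of unbound to IP, from 3 reads in IP and 232 in unbound RNA, was 78.8 (95% exact interval 26.6 to 385, counting error only), and the fitted value of -6.10 was -6.87 without IP replicate 1 and -5.45 without IP replicate 3. Cd53, a tetraspanin, was at 0.356, 0.610 and 0.378 CPM in IP and 8.19, 5.35 and 3.64 CPM in unbound RNA, or 7.82% of unbound.

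The lineage transcription factors were low in both fractions and lower in IP. Spi1 had 3, 11 and 1 IP reads, or 0.0713, 0.353 and 0.0222 CPM, against 1.88, 1.57 and 2.13 CPM in unbound RNA. Irf8 was at 0.0713, 0.450 and 0.0667 CPM in IP and 3.18, 2.24 and 2.09 CPM in unbound RNA. In both genes IP replicate 2 alone held most of the IP reads, and without it the log2 fold changes went from -3.72 to -5.23 for Spi1 and from -3.74 to -5.11 for Irf8. Aif1, the actin-binding protein IBA1 that stains microglia, was among the least reduced at 1.64, 2.12 and 2.27 CPM in IP against 9.17, 5.38 and 5.18 CPM in unbound RNA (-1.71 ± 0.31, SE). Like that of Mpeg1, its percent of unbound was highest in replicate 3, at 43.8%.

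**Figure D2:**
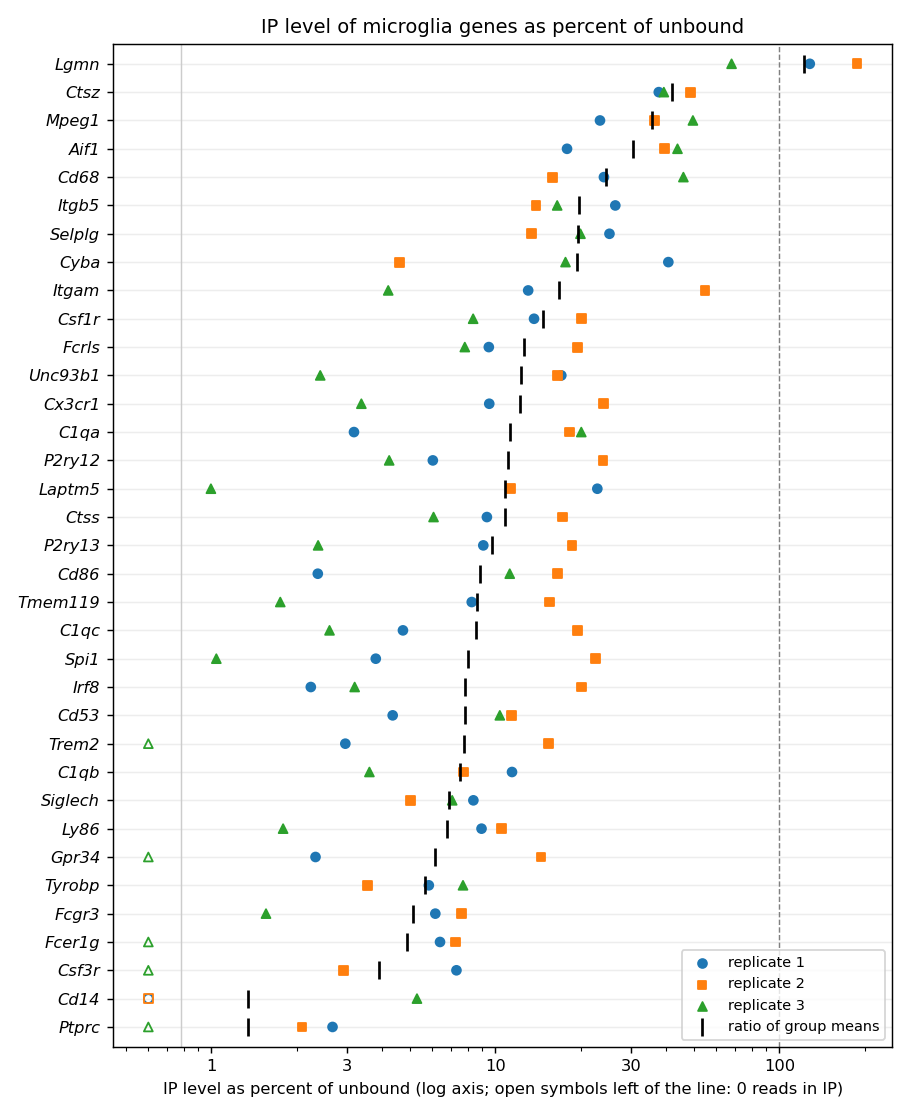
IP level of each of the 35 genes as a percent of its unbound level (log axis), by replicate number (coloured symbols) and as the ratio of group means (black bar), with 100% dashed and open symbols at the left edge for 0 IP reads. Replicate 3 (triangles) lies at the left for most genes and at the right for Aif1, Mpeg1 and Cd68.

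The IP level as a percent of the unbound level differed between replicates. This percent is a ratio of levels scaled within each library, not the part of the RNA that was captured. The median over the 35 genes was 8.94% in replicate 1, 15.9% in replicate 2 and 4.23% in replicate 3, while over 16264 genes with reads in all libraries the medians were 104%, 104% and 101%. Replicate 2 was the highest for 20 of the 35 genes and replicate 3 the lowest for 21. Exceptions with the highest percent in replicate 3 numbered 6: Aif1, Mpeg1, Cd68, C1qa, Tyrobp and Cd14, the last with 2 reads. IP replicate 3 had 0 reads for 5 of the 35 genes, and IP replicates 1 and 2 for 1 each. Ranked by percent of unbound, the genes kept their order only in part from replicate to replicate. Spearman's rho was 0.28 between replicates 1 and 2, 0.53 between 1 and 3 and 0.38 between 2 and 3. The 35 genes share libraries and, for many, low counts.

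The same order of replicates appeared in lists of other cell types. Summed over each list, the IP level as percent of unbound in replicates 1, 2 and 3 was 10.1%, 16.4% and 4.94% for oligodendrocyte genes, 20.8%, 37.5% and 8.77% for endothelial and mural genes and 42.2%, 47.8% and 29.2% for astrocyte genes. For the surface receptors of microglia it was 9.91%, 18.8% and 5.51%. Not every group of microglia genes kept that order: the leukocyte surface genes stood at 4.05%, 9.33% and 6.06%, and Aif1 at 17.9%, 39.4% and 43.8%. Pan-neuronal genes stood at 147%, 144% and 146%, with no such order. The astrocyte sum leans on Atp1b2 and Aldoc, which did not pass and had the highest IP levels of that list, at means of 417 and 384 CPM. They stood at 92.7% and 73.1% of unbound, while the median astrocyte gene stood at 13.4%. Oligodendrocyte genes summed to 4198, 4016 and 7582 CPM in the unbound libraries, while the microglia genes summed to 285, 219 and 205 CPM. The part of these other cell types in the result was not tested.

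**Figure D3:**
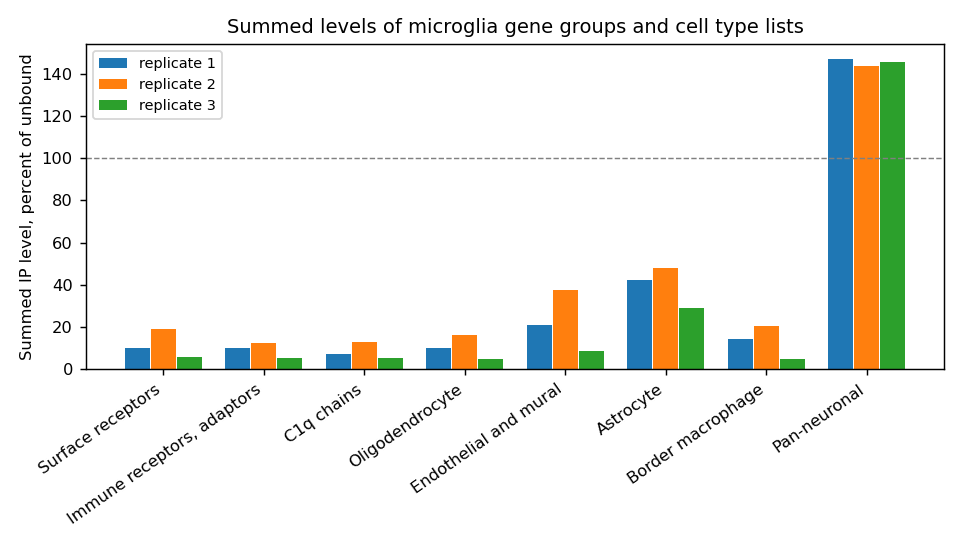
Summed IP level as percent of the summed unbound level (linear axis from 0, 100% dashed) for 3 groups of microglia genes and 5 cell type lists, with a bar for each replicate. The astrocyte bars lean on Atp1b2 and Aldoc, which did not pass. Replicate 2 is the highest bar and replicate 3 the lowest in every group drawn except the pan-neuronal list, whose bars stand between 144% and 147%. The leukocyte surface genes and Aif1, which are not drawn, did not keep this order.

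Set beside other lists, the microglia genes had a median log2 fold change of -3.39, oligodendrocyte genes -3.41 with 16 of 16 lower, astrocyte genes -2.92 with 16 of 18 lower, oligodendrocyte precursor genes -2.33 with 7 of 10 lower and endothelial and mural genes -2.69 with 8 of 13 lower. The genes with the smallest adjusted p in their lists, not always those with the largest falls, included Opalin (-4.08) and Mal (-3.85) of myelin, Cldn10 (-3.64) and Fgfr3 (-3.37) of astrocytes, and Vtn (-3.13) and Rgs5 (-2.85) of pericytes. Esam (0.17) of the endothelial and mural list, and Lhfpl3 (0.40) and Cspg5 (0.44) of the precursor list, had positive values and did not pass. Pan-neuronal genes had a median of 0.57, with 12 of 20 higher and 1 lower. The lists were not tested against each other.

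Microglia share most of the 35 genes with other macrophages. Genes of macrophages at the brain's borders were lower in 5 of 8 tested cases, with a median of -3.33, and 0 were higher. Lyve1 had 0 IP reads and 62 unbound reads, at least 21.1-fold lower in IP (3 reads over the group), and Cd163 (-3.65), Cbr2 (-4.36) and Mrc1 (-3.19) were also lower. Their 12 genes summed to 8.25 to 11.6 CPM in unbound RNA and 0.555 to 1.67 CPM in IP, and 2 of 12 were at 0 in all IP libraries. Blood cell genes summed to 11.6 to 28.2 CPM in unbound RNA, mostly from the globin gene Hbb-bs at 10.1 to 23.98 CPM. Of the 21 genes of that list 18 were too low to test or had no row, among them the neutrophil genes S100a8 and S100a9 and the T cell gene Cd3e, and 11 of the 19 with a row were at 0 in all IP libraries. Alas2 and Hbb-bs were lower in IP, and Mpo was higher, at 0.523, 0.610 and 0.933 CPM in IP against 0.251, 0.174 and 0.0959 CPM.

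Other genes of microglia, listed apart from the 35, were lower in 21 of 27 tested cases and higher in 1, with a median of -2.51. Sall1, a transcription factor that maintains microglial identity and is also expressed by other brain cells, stood at 3.09, 4.27 and 1.89 CPM in IP and 27.7, 23.9 and 31.5 CPM in unbound RNA. Mertk, a receptor for the engulfment of dying cells (-3.82), Hpgd (-2.17) and Cd84 (-5.06) followed. Hpgds, the blood cell form of prostaglandin D synthase, was higher in IP, at 7.79, 9.29 and 6.78 CPM against 4.06, 3.08 and 4.60 CPM, with a log2 fold change of 1.02 ± 0.24 (SE). Of the rest, Plek (0.09), Slc2a5 (0.13), Cd37 (-2.55) and Adgre1 (-1.68) were among those that did not pass.

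Partners of the 35 genes in signalling and transcription were lower in 10 of 24 tested cases and higher in 0, with a median of -1.62. Runx1 (-4.49), a factor of the blood lineage, Tlr7 (-3.16), which Unc93b1 carries, and the kinase Lyn (-1.85), which phosphorylates receptor adaptors, were among them, as was the factor Maf (-1.62). Itgb2, the chain that pairs with Itgam, stood at 0.475, 0.0964 and 0.111 CPM in IP and 0.852, 0.349 and 0.599 CPM in unbound RNA and did not pass (-1.37, edgeR adjusted p = 0.164).

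Genes that microglia raise on activation were mixed, with 6 of 12 tested lower and 1, Ctsb, higher, and a median of -1.32. Axl (-3.83), Cd9 (-4.17), Apoe (-3.30) and B2m (-1.24) were lower, and astrocytes and other cells express several of these too. Cst7, Itgax, Clec7a, Tnf, Il1b, Ccl2, Ccl3, Ccl4 and Ccl12 were too low to test, the highest single value being 0.336 CPM for Ccl12 in unbound replicate 3.

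Of the ligands of microglial receptors, 2 of 9 tested were higher and 3 lower, with a median of -0.02. These shares are near those of all genes tested (21.1% higher, 23.2% lower, median -0.01). Cd200, the neuronal membrane protein that restrains microglia, was at 327, 291 and 200 CPM in IP and 142, 119 and 109 CPM in unbound RNA (1.15 ± 0.20, SE), and all IP libraries lay above the unbound ones. Gas6, the ligand of Axl and Mertk, was also higher (0.56). Cx3cl1, which encodes fractalkine, stood at 191, 211 and 95.3 CPM in IP and 216, 213 and 88.5 CPM in unbound RNA, so the ligand was at like levels where its receptor Cx3cr1 fell 8.17-fold (edgeR adjusted p = 0.918 for the ligand). Of the ligands of Csf1r, Csf1 was lower (-1.07) and Il34 did not pass (0.42, edgeR adjusted p = 0.221). Tgfb1 (-2.73) and Pros1 (-1.84) were the other ligands that fell.

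**Figure D4:**
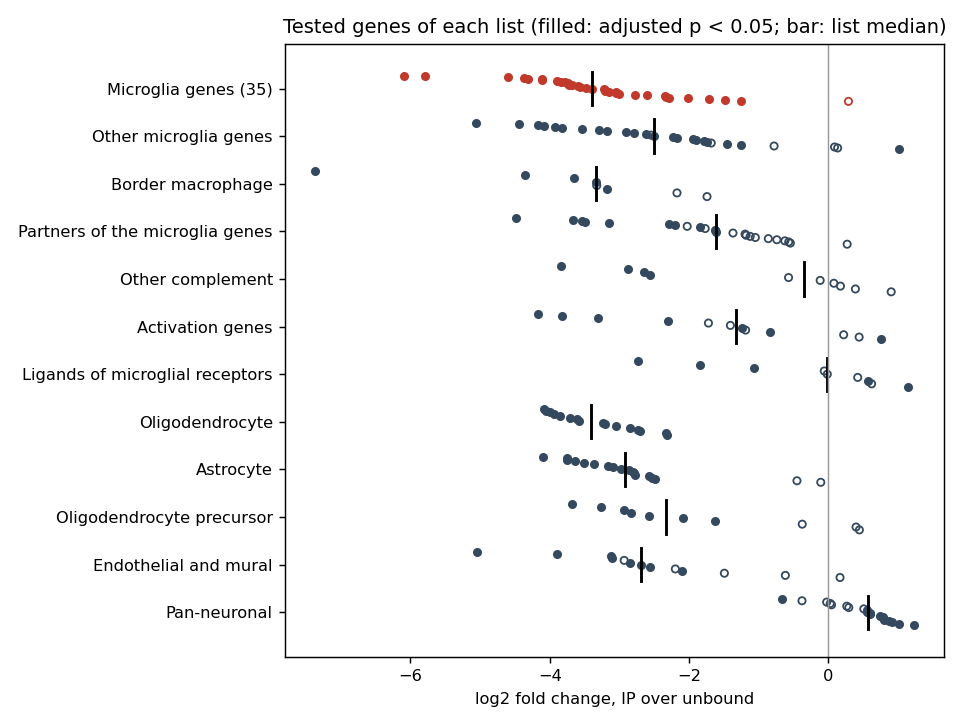
Log2 fold change of every tested gene of the 35 (red) and of 11 other lists (dark), filled where the adjusted p was under 0.05 and open otherwise, with the median of each list as a bar. The 35 genes centre at -3.39 with the single open symbol for Lgmn, and the pan-neuronal list centres at 0.57.

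Levels of different genes can be compared only per length. Per kb of merged exon length of coding transcripts (GENCODE M21 basic), the unbound level was highest for Lgmn at 15.2 ± 3.07 CPM per kb, followed by Ctss at 13.1 ± 3.16, Tyrobp at 11.7 ± 1.79, Fcer1g at 10.8 ± 2.36 and C1qb at 8.94 ± 1.21 CPM per kb (mean ± SD, n = 3). Neighbours in that order did not differ beyond their spread. In IP the order per kb was Lgmn at 18.6 ± 6.66, then Ctsz at 2.13 ± 0.63, Aif1 at 1.99 ± 0.33 and Ctss at 1.41 ± 0.69 CPM per kb, so Tyrobp, Fcer1g and C1qb had left the first 5 places. The lowest levels per kb in unbound RNA were those of Cd86 at 0.312 ± 0.083 and Ptprc at 0.385 ± 0.107 CPM per kb. Across the 35 genes the log2 ratio of IP to unbound had a Pearson's r of 0.45 and a Spearman's rho of 0.33 with the log2 unbound CPM, which is itself the divisor of that ratio, and rho was 0.10 with merged exon length and 0.19 with GC content.

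**Figure D5:**
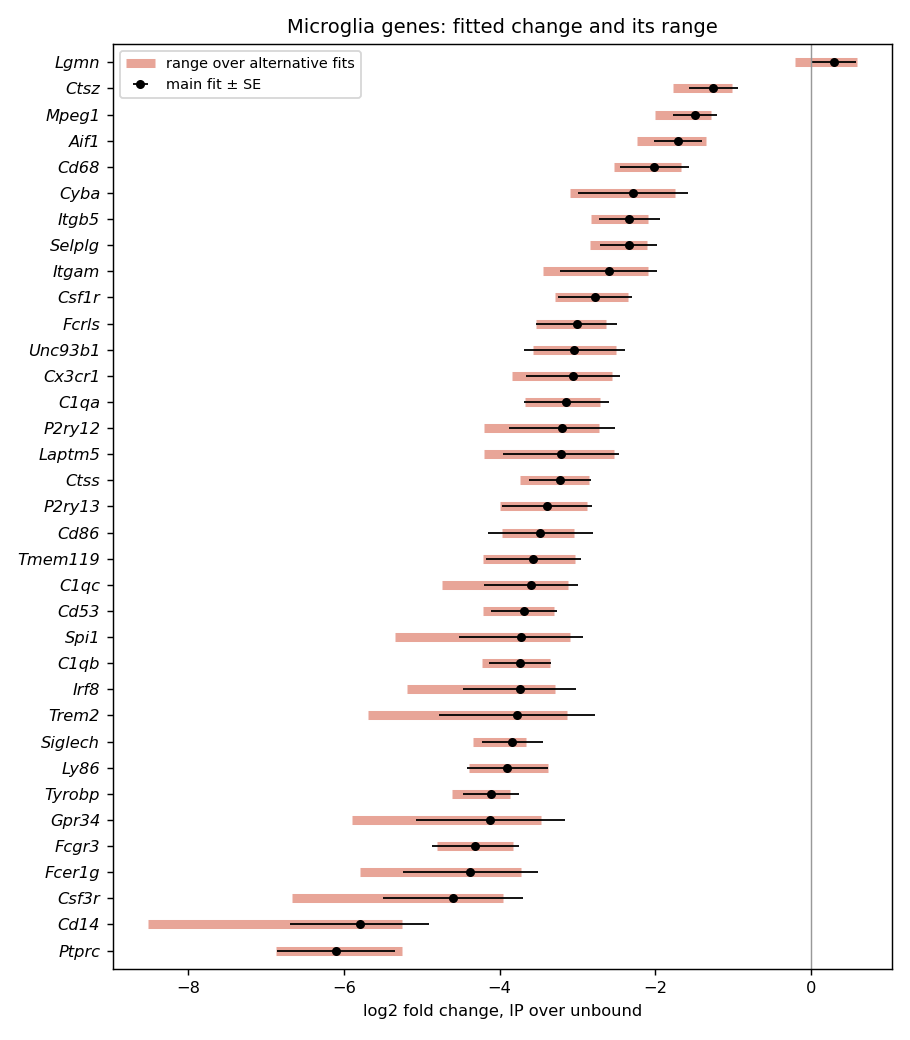
Fitted log2 fold change of each of the 35 genes with its standard error (black) and the range over the alternative fits in which the gene was tested (pink bar). The bars of 34 genes stay below 0, and that of Lgmn runs from -0.21 to 0.59.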

How the data were processed

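The 6 libraries (3 IP, 3 unbound) were grouped by the sample type in the labels, and replicate numbers come from the titles. The authors deposited whole-number read counts for each gene, 1 file a library. The submitters' processing notes name STAR 2.0.0e, HTSeq and the build mm10. Annotation, strand setting and overlap handling: not given in the sources used here. In both groups the 6 rows that name no gene stayed out: reads in no feature (7.74% ± 0.23 of all in IP and 13.1% ± 0.49 in unbound), ambiguous reads (1.61% ± 0.03 and 8.31% ± 1.07) and reads aligned to several places (44.5% ± 0.67 and 32.5% ± 0.62; mean ± SD, n = 3).

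Genes were tested with edgeR 4.0.16 (R 4.3.3; TMM scaling, library totals over all gene rows, filterByExpr defaults of 10 and 15 reads, robust quasi-likelihood fit on group), with Benjamini-Hochberg adjustment over 16991 genes and a threshold of 0.05. Each SE is the absolute log2 fold change over the root of its F statistic. The procedure was also run on simulated counts with far fewer changed genes than were called here. That run does not check the scaling where so many genes differ. The 35 genes, the other lists, the tests and the rule for named genes (the 10 highest in unbound RNA, 6 marker genes, the 3 highest and 3 lowest ratios, those that did not pass, and up to 4 genes of each other list) were chosen with earlier results of these data known. Other genes, such as Tyrobp, Trem2, C3, Itgb2, Cx3cl1 and Ctsd, were added after their values were seen. Over genes, same-numbered libraries had deviations (from the mean of each group) with correlations of 0.14, 0.16 and 0.21, above a threshold of 0.1. The numbers were used as pairs for the percents by replicate and in the replicate block, but not in the main test. No label states that they are pairs. Replicates 1 and 3 shared a lane, so within it number and lane differ. There the differently numbered libraries had correlations of -0.085 (IP replicate 1 with unbound replicate 3) and -0.165 (IP replicate 3 with unbound replicate 1). The remaining replicate was alone in its lane, so its correlation cannot tell number from lane. The reason for these correlations was not tested. Alternatives used DESeq2 1.42.0, limma 3.58.1 (voom), other scalings and filters, the replicate block, lane, and each library left out. Protein sequences were not used here, and some genes of the other lists are not reported here by name.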

Additional observations from a re-analysis of the deposited data

How the results depend on the processing

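Across 17 alternative fits, 575 values of single genes kept their direction and their side of the threshold, 12 lost significance (Cyba in 7 fits, and Trem2, Fcer1g, Ctsz, Cd68 and Laptm5 in 1 each), and Lgmn gave the other 4. Its log2 fold change turned to -0.21 under pan-neuronal scaling and to -0.0048 with lane 2 alone. The number of microglia genes lower in IP ranged from 29 to 34 (33 to 34 with 1 library left out), and 30 of the 31 that passed a filter of 1 CPM. The number higher was 0 except for 1 without the third pair, and 0 to 1 with 1 library left out. The replicate block gave 33 lower and changed no call but that of Cyba. Pan-neuronal scaling gave 914 genes higher and 6924 lower in all, or 11.7% of calls higher against 47.6% (3586 and 3943) in the main test, and put the median of all genes at -0.51 and that of the 35 genes at -3.90. Lane 2 alone gave 3835 calls, 1297 higher and 2538 lower. Pan-neuronal scaling sets the mean log level of the pan-neuronal genes equal across libraries. In the main test their median log2 fold change was 0.57. What else lay behind these changes was not tested. Taken as a ratio of summed CPM in place of a median over genes, the IP level was 27.4% of unbound, and Lgmn held 55.2% to 60.9% of the IP sum and 10.9% to 15.8% of the unbound sum. Depth limits Cd14, Ptprc, Csf3r, Cyba and Cd86, which had 2 to 14 IP reads in all.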
